A study of Mus musculus with 12 samples.

Results

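The 32 genes described here encode proteins of autophagy and of the lysosome. They were listed by name, with earlier results of these data known, out of 35583 genes. Of these, 18 belong to the lysosome (4 membrane proteins, 7 cathepsins and legumain, 6 glycosidases and lipid cofactors, and the regulator Tfeb) and 14 to autophagy (3 cargo receptors, 5 ATG8 family members, and 6 genes of initiation and conjugation). All 32 were found and all 32 passed the filter on low counts. Poly(A) RNA had been sequenced from dorsal root ganglia, the paired clusters beside the spinal cord that hold the cell bodies of sensory neurons. The tested mice were labelled Q84, for the YAC Q84 line, and their controls WT, and all were 24 weeks old. YAC Q84 mice carry the human ATXN3 gene with an expanded CAG repeat on a yeast artificial chromosome, beside their own mouse Atxn3, and serve as a model of spinocerebellar ataxia type 3. The libraries were labelled as 1 Q84 male, 5 Q84 females, 3 WT males and 3 WT females. The labels give neither strain nor transgene copy number. Nothing in them states that the libraries stem from different animals, and the p-values measure only the spread between libraries.

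Before the members are described, 2 libraries have to be set apart. A 1000-base transcript of mouse Atxn3 held 62.7 to 79.4 TPM (a level scaled for transcript length and library size) in the library of the Q84 male and in Q84 female 1 to 4. It held at most 0.285 TPM in 5 WT libraries. With 0.061 TPM the library labelled Q84 female 5 went against its label, and so did the one labelled WT female 2, with 34.0 TPM. The differences given first below are from the other 10 libraries, 5 Q84 and 5 WT, and those of all 12 as labelled follow. Total estimated counts ran from 66490481 to 86891563 per library. Gla and Tfeb, at means of 0.771 and 0.815 TPM, were the members with the fewest counts.

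Autophagy encloses worn or aggregated cell material in a double membrane and delivers it to lysosomes. The ULK1 kinase and the Beclin-1 complex start the process, the ATG conjugation proteins attach ATG8 proteins (the LC3 and GABARAP families) to the growing membrane, and receptors such as p62 link cargo to them. Lysosomes then degrade the cargo with acid proteases, glycosidases and lipid cofactors inside a membrane coated by LAMP proteins. The transcription factor TFEB switches many of these genes on through E-box motifs near their starts. Ataxin-3, the protein that ATXN3 encodes, is a deubiquitinase, and its expanded form aggregates in neurons.

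The E-box core CACGTG reads the same on both strands. It was looked for in the RefSeq windows of build GRCm38.p6 that run from 250 bases before a gene's start to 50 bases after it. Of the 32 members 27 had such a window, and 10 of the 27 held the motif (Ctsa, Ctsd, Ctsl, Lgmn, Mcoln1, Lamp1, Gaa, Gla, Atg5 and Atg7), against 7.15% of all 32851 windows and 10.4% of the 13446 tested genes with a window. Among lysosomal members the motif was in 8 of 16, and among autophagy members in 2 of 11. The longer form GTCACGTG, on either strand, was in 7 of 27 members and in 3.90% of the tested genes, and it overlaps the core. Shown here are the windows of Ctsl and Lgmn, the members with the lowest p-values between Q84 and WT, then those of Ctsd and Mcoln1 as an acid protease and a membrane channel of the lysosome, and last the stretch before Lamp1, which holds 4 copies. Capitals mark the motif, and each is written 5′ to 3′ on the gene's strand. The first lies at chr13:64370739-64370768 (minus strand), the second at chr12:102439124-102439153 (minus), the third at chr7:142387908-142387937 (minus), the fourth at chr8:3500436-3500465 (plus) and the last at chr8:13159086-13159160 (plus).
Ctsl: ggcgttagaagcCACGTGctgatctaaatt
Lgmn: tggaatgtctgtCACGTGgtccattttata
Ctsd: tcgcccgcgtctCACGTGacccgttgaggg
Mcoln1: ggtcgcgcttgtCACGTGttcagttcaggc
Lamp1: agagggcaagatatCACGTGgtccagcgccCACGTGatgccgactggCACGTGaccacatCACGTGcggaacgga
The motif shown began 236 bases before the RefSeq start in Ctsl, 49 in Lgmn, 98 in Ctsd and 71 in Mcoln1. In Lamp1 the copies began 61, 45, 28 and 15 bases before it. Ctsd and Mcoln1 each held 1 more copy, not shown, that began 245 and 45 bases before the start. The Lgmn window shown belongs to a start 721 bases from that of the main listed transcript Lgmn-201. It lies inside the span of Lgmn-201, where no listed transcript has an exon. The other Lgmn window, whose start lay 85 bases from that of Lgmn-201, held no copy. The start of the Atg7 window lay 27999 bases from that of Atg7-201. The Ctsa window with the motif had its start 847 bases from that of Ctsa-203, and the window at Ctsa-202 held no copy. The stretches shown for Ctsl, Ctsd and Mcoln1 overlap exons of Ctsl-203, Ctsd-202 and Mcoln1-201. Lamp2 had no copy in its window. A match of letters is a description and no measurement of binding.

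In these ganglia the members ranged widely in level per length. The highest means over the 12 libraries were those of Ctsl, the cysteine protease cathepsin L, at 1246 TPM, of Gabarapl1, an ATG8 protein abundant in neurons, at 950.4 TPM, and of Ctsb, cathepsin B, at 887 TPM. Psap, the precursor of the saposins that help degrade sphingolipids, followed at 744 TPM and Gabarapl2 at 578 TPM. All 5 ATG8 genes lay between 372 and 950.4 TPM, whereas the kinase gene Ulk1 had 3.28 TPM and Tfeb 0.815 TPM. The steadiest member was Gabarap, whose TPM had a coefficient of variation of 3.45% over the 12 libraries, followed by Atg5 with 4.41%. The least steady were Ctss, cathepsin S of immune cells, with 67.7%, Gla with 65.5% and Grn, which encodes progranulin, with 53.3%. Ctss stood at 69.9 CPM (counts scaled for library size only) in the library labelled WT female 1 and between 10.7 and 32.8 CPM in the 11 others. That library also had the highest summed level of 16 macrophage markers, 209 TPM, against 89.7 to 203 TPM in the others. Levels in TPM serve here mainly to rank genes, since mitochondrial transcripts took a larger part of the total in Q84 than in WT libraries. This lowers the TPM of the other genes as a whole in Q84, and the limit holds for each level or sum in TPM given below.

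**Figure D1:**
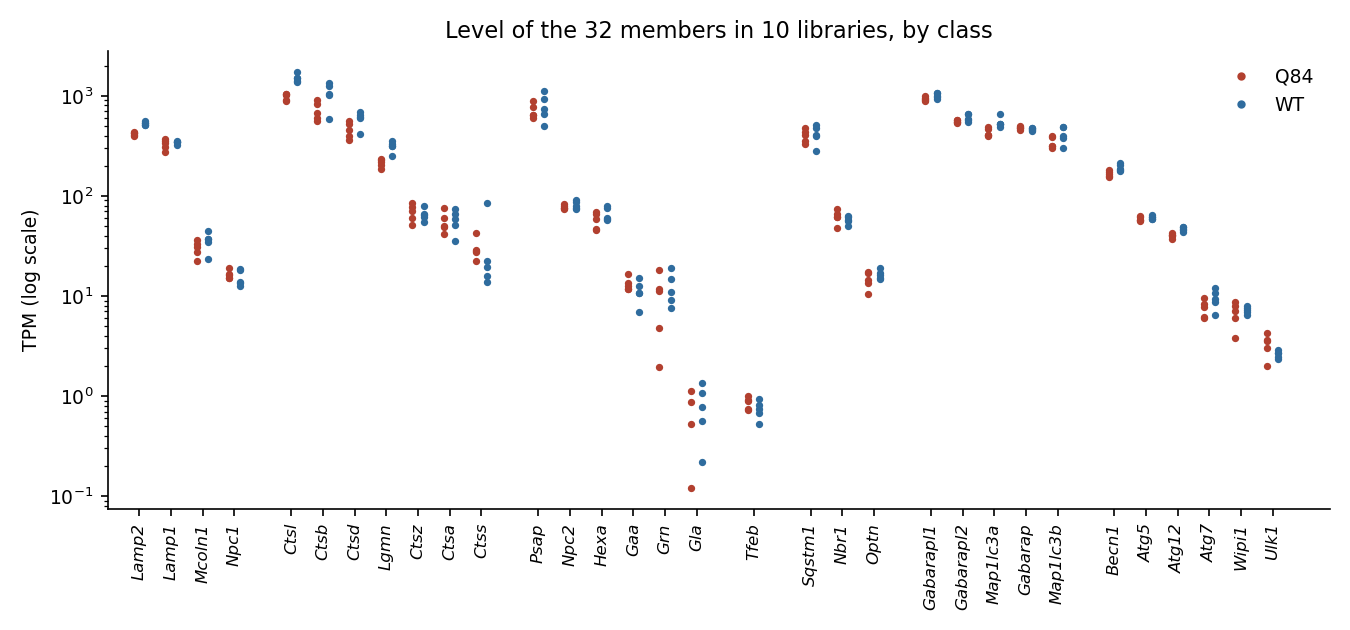
TPM (log scale) of the 32 members by class in 5 Q84 and 5 WT libraries, each point 1 library. Gla at 0 TPM in 1 Q84 library cannot be drawn on a log scale. The highest levels belong to Ctsl, Gabarapl1 and Ctsb and the lowest to Gla and Tfeb.

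Between Q84 and WT the members that passed the test were lysosomal and lower in Q84. In the 10 libraries 3 of 32 members fell, Ctsl, Lgmn and Lamp2, and 0 rose (edgeR's quasi-likelihood test, adjusted p under 0.05). Of all 18721 genes tested 6.45% were called, 4.93% lower and 1.52% higher, so a count of 3 in 32 does not by itself set the members apart. DESeq2 called 4 members, all lower, with Map1lc3a as the fourth, against 1934 of all 18721 genes, 1352 of them lower. At an unadjusted p under 0.05 there were 7 members, all lower: those 4 with Atg12, Ctsb and Ctsd. Over all genes 20.2% lay under that limit, and 12.2% did so on the lower side. The fitted log2 fold change was negative in 22 of 32 members, against 47.7% of all genes, with a median of -0.08 over the members and 0.01 over all genes. With the mitochondrially encoded share of counts as a covariate it was negative in 15 of 32, with a median of 0.03. The same 3 members were called then, against 629 of all 18721 genes. At an unadjusted p under 0.05 there were 5 members lower and 6 higher, against 3672 of all genes in either direction. The mitochondrial share largely followed genotype in these libraries, so this fit cannot separate that share from genotype. In bulk tissue fewer cells of a type and less RNA per cell cannot be told apart.

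With all 12 libraries as labelled, 0 of 32 members and 1 of 18875 genes (0.0053%) were called. DESeq2 called Ctsl and Lgmn in these libraries, among 620 of all 18875 genes, and limma-voom called no member and 1 gene. At an unadjusted p under 0.05 the same number of members, 7, was lower and 0 were higher, against 8.56% of all genes lower and 14.3% in either direction. Without the library labelled Q84 female 5 alone, edgeR called Ctsl (adjusted p = 0.014) and Lgmn (adjusted p = 0.0027), among 1082 of 18763 genes. Without WT male 1 it called Lgmn, among 42 of 18775 genes, and without WT female 2 it called no member and 51 of 18843 genes.

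**Figure D2:**
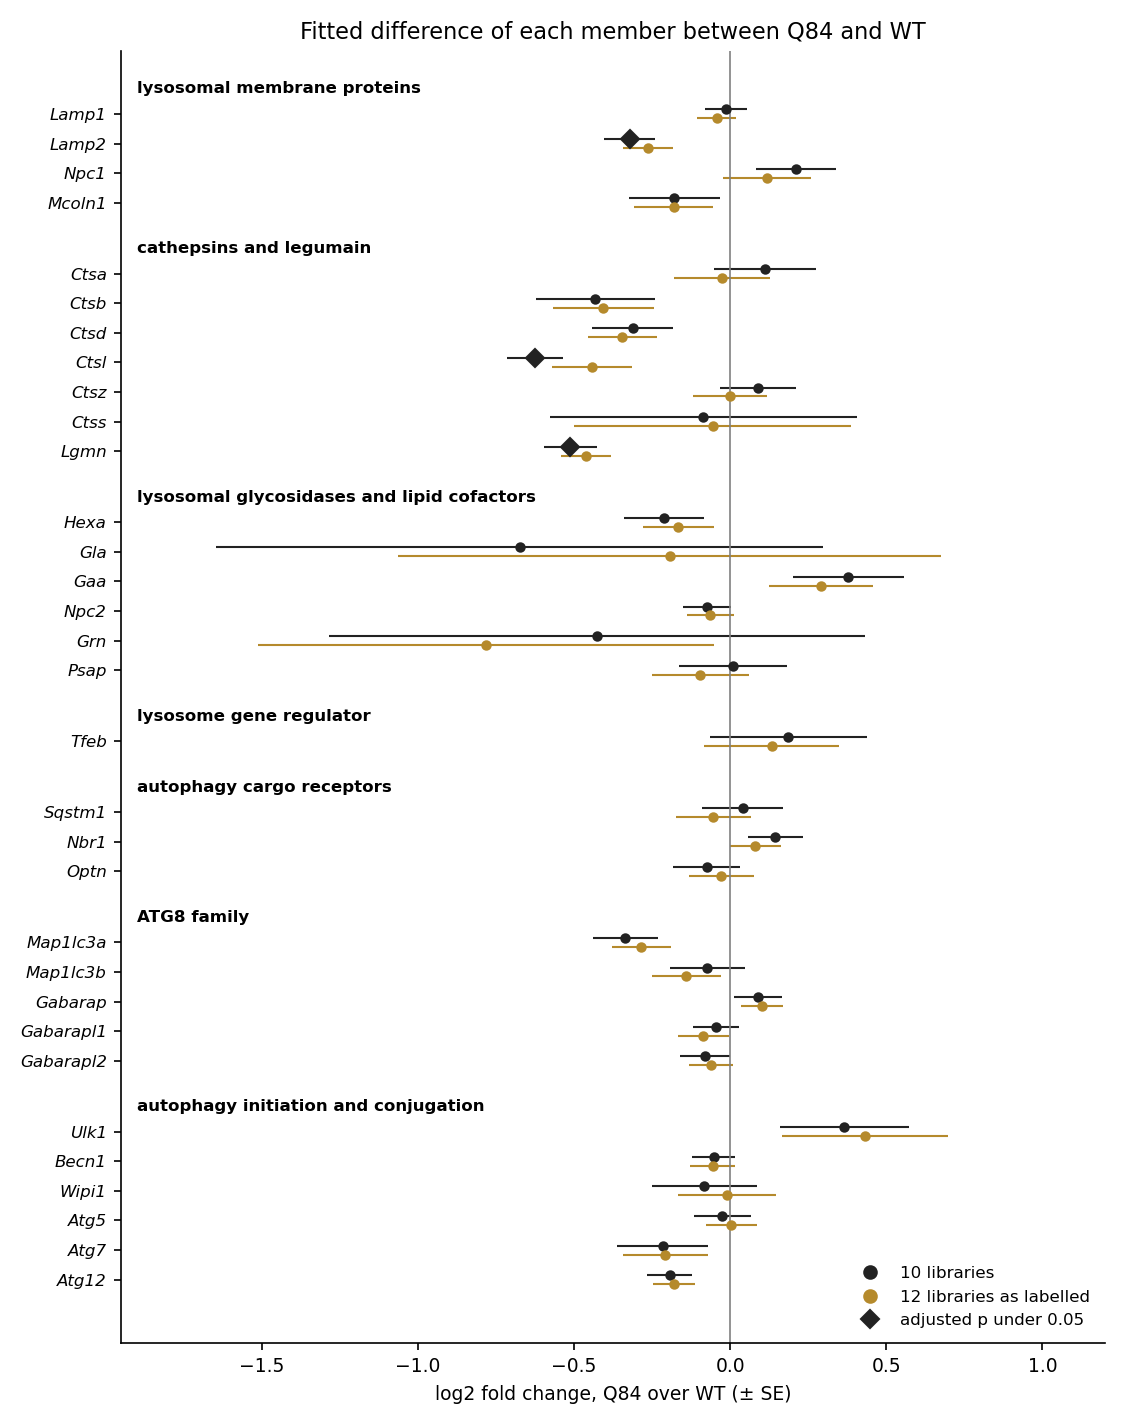
Fitted log2 fold change of Q84 over WT with its standard error for the 32 members by class, from 10 libraries (black) and from all 12 as labelled (ochre). Diamonds mark the 3 members that passed the test in the 10 libraries. The wide bars belong to Gla, Grn and Ctss.

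Among cathepsins and legumain, Ctsl was the member of largest change that passed the test. Its level was 990 CPM in Q84 male 1 and 1214, 1270.3, 1427 and 1107 CPM in Q84 female 1 to 4, against 1701, 1540.4 and 1681 CPM in the 3 WT males and 1771 and 1943 CPM in WT female 1 and 3. Every one of these Q84 libraries lay under every WT library. The means were 1202 ± 166 CPM in Q84 and 1727 ± 147 CPM in WT (SD, n = 5 each), and the fitted log2 fold change was -0.62 (SE 0.090, edgeR, adjusted p = 0.0014). The 2 libraries set apart lay on the side of their Atxn3 transcript and not of their label, Q84 female 5 at 1688 CPM and WT female 2 at 1355 CPM. With all 12 libraries the log2 fold change was -0.44 (edgeR, adjusted p = 0.145).

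Lgmn encodes legumain, the asparaginyl endopeptidase that cuts and matures other lysosomal proteases, cathepsin L among them. It stood at 274 CPM in Q84 male 1 and at 288, 256, 256 and 269 CPM in Q84 female 1 to 4, against 319, 387 and 421 CPM in the WT males and 388 and 391 CPM in WT female 1 and 3. No Q84 library reached the lowest WT library, and this held in all 12, since Q84 female 5 had 308 CPM and WT female 2 had 361 CPM. The means were 268 ± 13.7 CPM in Q84 and 381 ± 37.6 CPM in WT (SD, n = 5 each), and the fitted log2 fold change was -0.51 (SE 0.086, edgeR, adjusted p = 0.0036). With 12 libraries it was -0.46 (edgeR, adjusted p = 0.062). In the 10 libraries the calls of Ctsl and Lgmn were kept when any library was left out, with log2 fold changes from -0.68 to -0.57 and from -0.55 to -0.48. With the mitochondrially encoded share as a covariate Ctsl was at -0.71 (adjusted p = 0.0064), and Lgmn was at -0.31 with an adjusted p of 0.0497, just inside the threshold.

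The other 5 members of this class did not pass. Ctsb averaged 1306 ± 209 CPM in Q84 and 1813 ± 430 CPM in WT libraries (SD, n = 5 each), with a fitted log2 fold change of -0.43 (edgeR, adjusted p = 0.233). Ctsd, the aspartic protease cathepsin D, averaged 645 ± 82.5 CPM in Q84 and 807 ± 121 CPM in WT libraries, a log2 fold change of -0.31 (adjusted p = 0.203). Both were low in WT male 1 among WT libraries, which held 1125 CPM of Ctsb, against 1783 to 2233 CPM in the other 5 WT libraries, and 599.7 CPM of Ctsd. Without WT male 1 both were called in the 10-library comparison, Ctsb at -0.52 (adjusted p = 0.0085) and Ctsd at -0.38 (adjusted p = 0.020). With the mitochondrially encoded share of counts as a covariate Ctsb was at -0.033 (adjusted p = 0.96) and Ctsd at 0.039 (adjusted p = 0.87) in the 10 libraries. Since that share largely followed genotype, such a fit cannot separate it from genotype. Ctsa, the protective protein of galactosidase, Ctsz and Ctss had log2 fold changes of 0.11, 0.09 and -0.09, with standard errors of 0.16, 0.12 and 0.49.

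**Figure D3:**
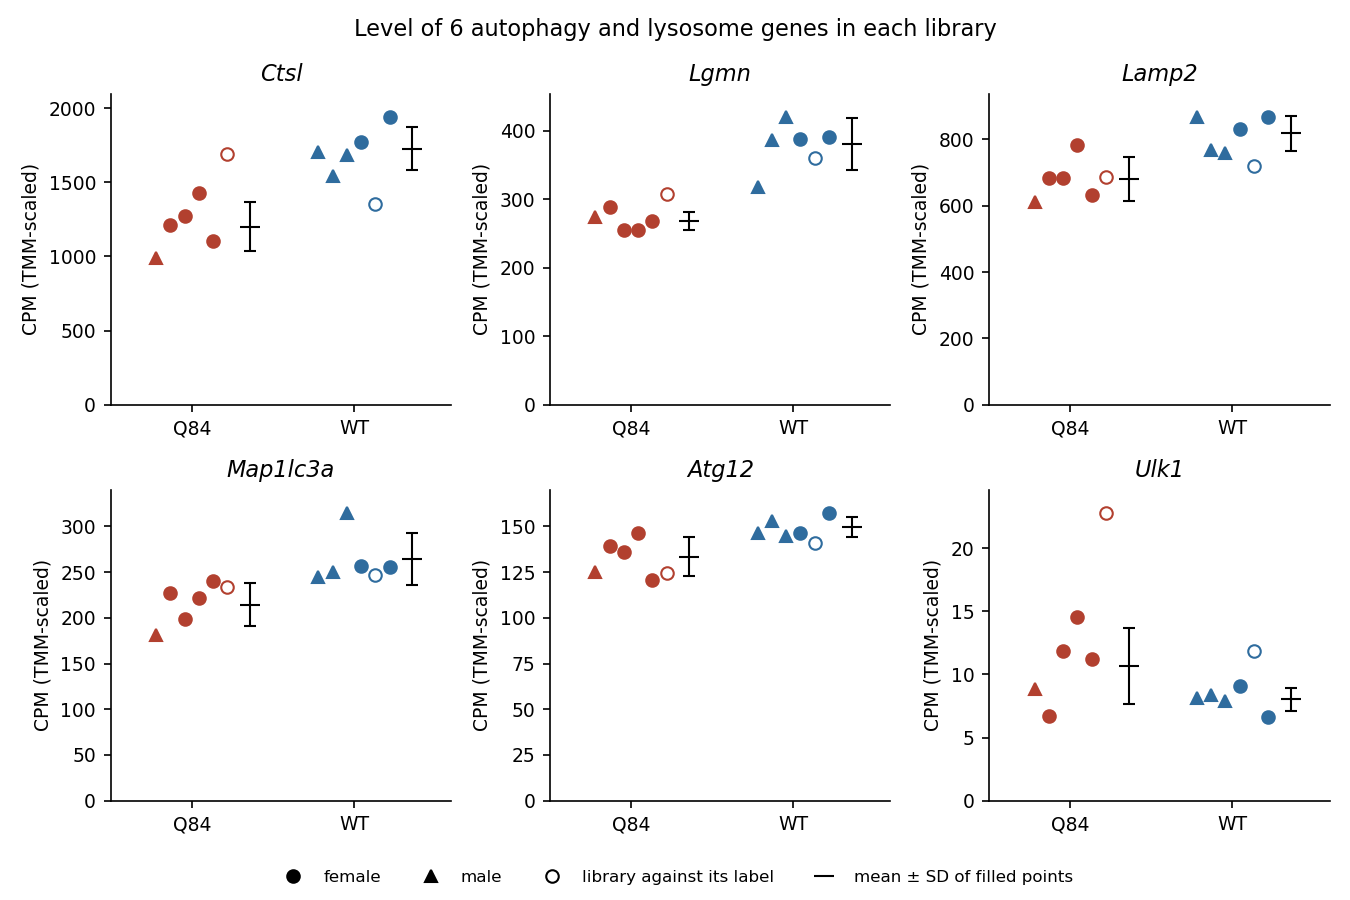
CPM of the 3 members that passed the test (Ctsl, Lgmn, Lamp2) and of the 3 autophagy members of smallest p (Map1lc3a, Atg12, Ulk1) in every library. Triangles are males, circles females, and open circles the libraries labelled Q84 female 5 and WT female 2. Bars are the mean ± SD of the 5 filled points. For Ctsl the open circles lie among the points of the opposite label.

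Among the lysosomal membrane proteins Lamp2 fell and the other 3 members did not pass. LAMP-2 lines the lysosomal membrane and takes part in its fusion with autophagosomes. Its gene stood at 612 CPM in Q84 male 1 and at 684, 684, 784 and 633 CPM in Q84 female 1 to 4, against 868, 769 and 759 CPM in the WT males and 831 and 869 CPM in WT female 1 and 3. The groups overlapped through Q84 female 3, which lay above WT male 2 and WT male 3. The means were 679 ± 66.3 CPM in Q84 and 819 ± 52.9 CPM in WT (SD, n = 5 each), and the fitted log2 fold change was -0.32 (SE 0.082, edgeR, adjusted p = 0.037), and the log2 fold change was -0.26 with 12 libraries (adjusted p = 0.159). The call was kept without WT male 1 or Q84 female 3 and lost without any of the other 8 libraries (WT male 2 or 3, WT female 1 or 3, Q84 male 1, Q84 female 1, 2 or 4), where adjusted p ran from 0.067 to 0.188, and its log2 fold change lay between -0.36 and -0.29 in these 10 fits. Lamp1, its close relative, differed by less than its standard error, at 488 ± 29.6 CPM in Q84 and 491 ± 14.8 CPM in WT libraries (log2 fold change -0.01, SE 0.068). Npc1, the cholesterol exporter, had a log2 fold change of 0.21 (SE 0.13) and Mcoln1, the calcium channel mucolipin 1, one of -0.18 (SE 0.15).

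Lamp2 gives 3 proteins that share 8 exons and differ in the last one, which holds the coding end. LAMP-2A is the receptor of chaperone-mediated autophagy, LAMP-2B is common in muscle and brain, and LAMP-2C has been tied to the uptake of nucleic acids by lysosomes. The listed transcripts Lamp2-201, Lamp2-202 and Lamp2-203 were assigned to 2A, 2B and 2C by their coding ends. The last 30 coding bases of each are shown because they are what tells the forms apart, with the stop codon in capitals (GENCODE M21, build GRCm38, minus strand). They lie at chrX:38405432-38405461 for 2A, chrX:38421712-38421741 for 2B and chrX:38402139-38402168 for 2C.
LAMP-2A: cgccatcatactggatatgagcaatttTAG
LAMP-2B: aagacctatgctggatatcagactctgTAA
LAMP-2C: aaaagtcgtactggttatcagtctgtcTAA

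The forms took different shares of Lamp2 in Q84 and in WT. LAMP-2C held 47.1% of the gene's TPM in Q84 male 1 and 47.8, 47.3, 48.3 and 46.1% in Q84 female 1 to 4, against 49.9, 53.1 and 54.3% in the WT males and 50.4 and 53.8% in WT female 1 and 3. LAMP-2B held 25.3% in Q84 male 1 and 24.2, 23.1, 24.5 and 24.2% in Q84 female 1 to 4, against 20.8, 20.7 and 19.4% in the WT males and 21.6 and 20.1% in WT female 1 and 3. For both forms the groups did not overlap, and they did not overlap in all 12 libraries either, where Q84 female 5 had 44.4% of 2C and 24.2% of 2B, and WT female 2 had 50.3% and 22.8%. LAMP-2A overlapped, at 27.0 to 29.7% in Q84 and 26.0 to 29.2% in WT libraries. In level, 2C averaged 197 ± 9.84 TPM in Q84 and 278 ± 14.4 TPM in WT libraries, 2A averaged 118 ± 4.72 TPM in Q84 and 144 ± 9.29 TPM in WT libraries, and 2B averaged 101 ± 3.89 TPM in Q84 and 109 ± 5.92 TPM in WT libraries (SD, n = 5 each). Of 18448 transcripts in the same range of shares 3.68% did not overlap in the 10 libraries and 1.3% in all 12, and of the members' 39 such transcripts 4 did not in both. These are 2 of Lamp2 and 2 of Map1lc3b, where Map1lc3b-205 held 13.8% in both Q84 male 1 and WT female 2 and so was parted in the 12 libraries only beyond the printed digits, and shares within a gene depend on each other. No test was run on the shares, and the estimates divide reads that fall in the shared exons.

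**Figure D4:**
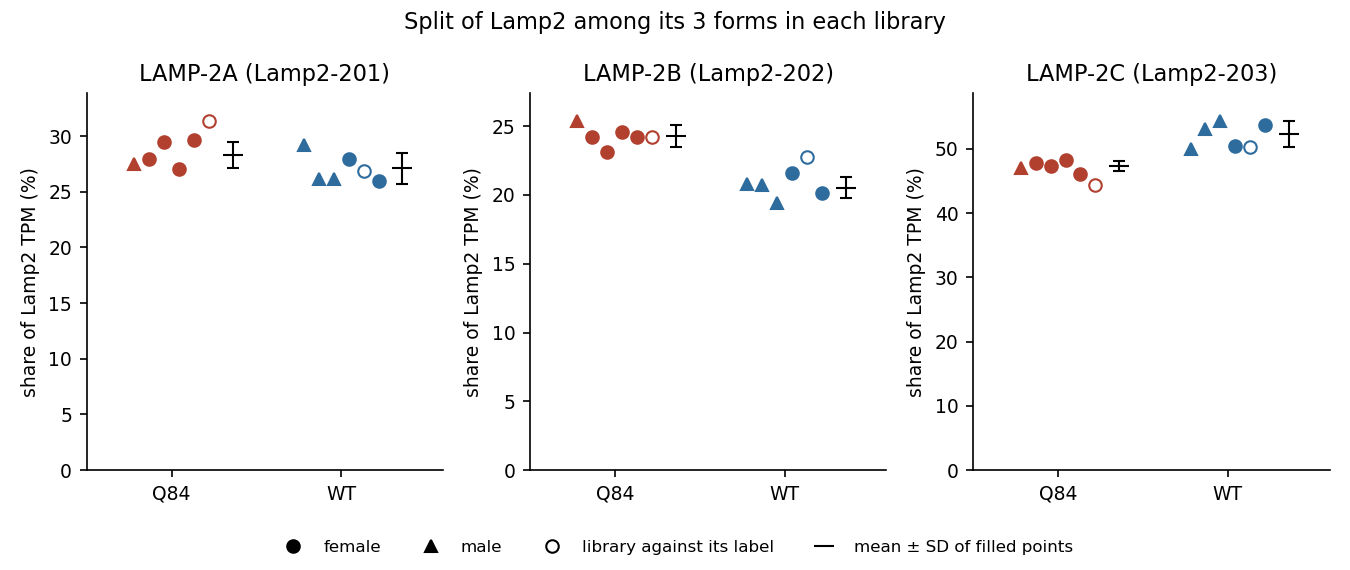
Share of Lamp2 TPM held by LAMP-2A, LAMP-2B and LAMP-2C in every library. Triangles are males, circles females, open circles the libraries labelled Q84 female 5 and WT female 2, and bars the mean ± SD of the 5 filled points. LAMP-2C is lower and LAMP-2B higher in each Q84 library than in each WT library, while LAMP-2A overlaps.

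None of the 6 glycosidases and lipid cofactors passed, and none had an unadjusted p under 0.05 (DESeq2 also called 0). Gaa, the acid alpha-glucosidase that degrades glycogen, averaged 29.5 ± 3.06 CPM in Q84 and 24.2 ± 6.80 CPM in WT libraries (SD, n = 5 each; log2 fold change 0.38, SE 0.18). Hexa, a subunit of beta-hexosaminidase, had a log2 fold change of -0.21 (SE 0.13), Npc2, the partner of NPC1, one of -0.07 (SE 0.077) and Psap one of 0.01 (SE 0.17). Grn ran from 1.38 to 25.5 CPM in Q84 and from 10.8 to 26.5 CPM in WT libraries, and its log2 fold change of -0.43 had a standard error of 0.86. Gla, alpha-galactosidase A, ran from 0 to 2.41 CPM in Q84 and from 0.484 to 2.87 CPM in WT libraries, and the spread between libraries gave its log2 fold change of -0.67 a standard error of 0.97. Tfeb averaged 0.860 ± 0.138 CPM in Q84 and 0.744 ± 0.203 CPM in WT libraries, a log2 fold change of 0.19 (SE 0.25).

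Of the 14 autophagy members 0 passed in the 10 libraries, 2 had an unadjusted p under 0.05, and DESeq2 called 1, Map1lc3a. Map1lc3a encodes LC3A, 1 of the ATG8 proteins that mark the autophagosome membrane. It stood at 182 CPM in Q84 male 1 and at 228, 199, 221 and 241 CPM in Q84 female 1 to 4, against 245, 249.7 and 315 CPM in the WT males and 257 and 256 CPM in WT female 1 and 3. The groups did not overlap here or in all 12 libraries, with Q84 female 5 at 234 CPM and WT female 2 at 247 CPM, but Q84 female 4 lay close to WT male 1. The means were 214 ± 23.5 CPM in Q84 and 265 ± 28.8 CPM in WT (SD, n = 5 each), and the fitted log2 fold change of -0.34 (SE 0.11) did not pass edgeR's test (adjusted p = 0.087). It was -0.21 (adjusted p = 0.43) without Q84 male 1, the lowest library, and -0.19 (adjusted p = 0.304) in the female libraries alone. With Ctsl and Lgmn it made 3 members whose Q84 and WT ranges did not overlap in the 10 libraries, all lower, against 8.67% of all genes and 5.96% on the lower side. In all 12 these were Lgmn and Map1lc3a, against 1.56% of all genes.

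The other 4 ATG8 genes did not pass. Map1lc3b, the LC3B gene, averaged 528 ± 48.8 CPM in Q84 and 576 ± 94.9 CPM in WT libraries (log2 fold change -0.07, SE 0.12), and Gabarap 362 ± 33.5 and 331 ± 9.84 CPM in the same order (0.09, SE 0.076). Gabarapl1 and Gabarapl2 had log2 fold changes of -0.04 (SE 0.073) and -0.08 (SE 0.081). Within Map1lc3b the longer transcript Map1lc3b-201 held 84.1 to 88.8% of TPM in Q84 and 76.8 to 81.8% in WT libraries, and the short Map1lc3b-205 held 7.81 to 13.8% in Q84 and 14.6 to 19.3% in WT libraries. Of the TPM of Map1lc3a 73.1 ± 3.20% in Q84 and 71.4 ± 2.34% in WT libraries were given to Map1lc3a-203, which is annotated as a processed transcript without a coding sequence.

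Among the genes of initiation and conjugation none passed. Atg12, the ubiquitin-like protein that is joined to ATG5, stood at 125 CPM in Q84 male 1 and at 139, 136, 147 and 121 CPM in Q84 female 1 to 4, against 146, 153 and 145 CPM in the WT males and 147 and 158 CPM in WT female 1 and 3. Only Q84 female 3 reached into the WT range. The log2 fold change was -0.19 (SE 0.072, edgeR, adjusted p = 0.150). Ulk1 stood at 8.87 CPM in Q84 male 1 and at 6.72, 11.9, 14.6 and 11.3 CPM in Q84 female 1 to 4, against 8.12, 8.38 and 7.89 CPM in the WT males and 9.08 and 6.63 CPM in WT female 1 and 3. Its spread was wider in Q84 than in WT libraries, and the log2 fold change of 0.37 (SE 0.21) did not pass (adjusted p = 0.361). With the mitochondrially encoded share as a covariate it was -0.039. The highest value of all was in the library labelled Q84 female 5, at 22.8 CPM, and WT female 2 had 11.9 CPM. Becn1, which encodes Beclin-1, Wipi1, Atg5 and Atg7 had log2 fold changes of -0.05, -0.08, -0.03 and -0.22, with standard errors of 0.069, 0.17, 0.092 and 0.14.

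The 3 cargo receptor genes did not pass, and none had an unadjusted p under 0.05 (DESeq2 also called 0). Sqstm1, which encodes p62, averaged 552 ± 49.4 CPM in Q84 and 550.2 ± 98.7 CPM in WT libraries (SD, n = 5 each; log2 fold change 0.04, SE 0.13). Nbr1 had a log2 fold change of 0.14 (SE 0.088) and Optn, the optineurin gene, one of -0.08 (SE 0.11).

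Summed over the class, the 18 lysosomal members held a smaller share of counts in most Q84 libraries. The share was 0.683% in Q84 male 1 and 0.683, 0.599, 0.630 and 0.600% in Q84 female 1 to 4, against 0.645, 0.801 and 0.886% in the WT males and 0.814 and 0.789% in WT female 1 and 3. Only WT male 1 lay within the Q84 range. Such a sum weighs the most abundant genes most. In mean summed TPM the 18 members held 4183 in Q84 and 5502 in WT libraries, while the mitochondrially encoded genes held 221406 and 190495. Of the members' TPM, cathepsins and legumain held 2521 and 3617, and membrane proteins 791 and 925. The glycosidases and lipid cofactors overlapped, at 749 to 1060 TPM in Q84 and 650 to 1293 TPM in WT libraries. The 14 autophagy members held 0.373 to 0.407% in Q84 and 0.375 to 0.425% in WT libraries, which overlapped. The 13 mitochondrially encoded genes held 8.84 to 10.9% of counts in Q84 and 6.80 to 9.47% in WT libraries, with WT male 1 the highest of WT. WT male 1 was thus the WT library with the lowest lysosomal and the highest mitochondrial share. Of the libraries set apart, Q84 female 5 held 0.658% lysosomal, 0.336% autophagy and 11.8% mitochondrial counts. WT female 2 held 0.770, 0.409 and 7.47% in the same order. Of the 13 mitochondrially encoded genes mt-Nd2 alone was called in the 10 libraries, higher in Q84. Of the 5 WT libraries only WT male 1 lay within the Q84 range of the mitochondrial share. The covariate fits given above thus cannot separate that share from genotype. Whether the mitochondrial share has a part in the lysosomal difference was not tested.

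**Figure D5:**
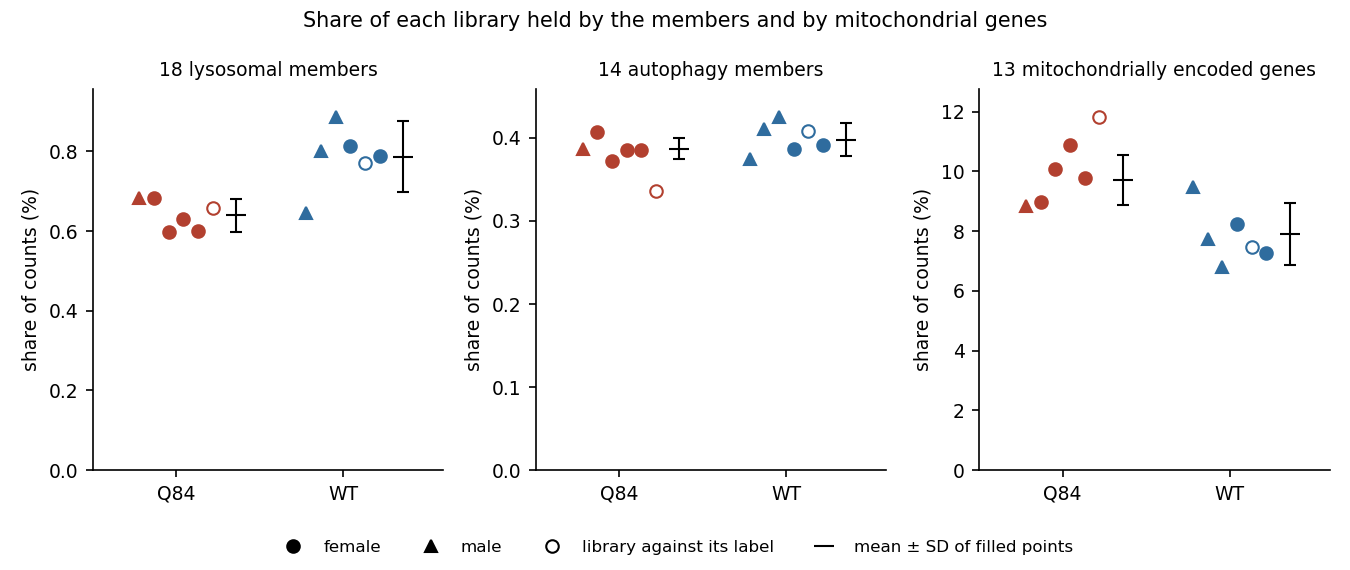
Share of counts held by the 18 lysosomal members, the 14 autophagy members and the 13 mitochondrially encoded genes in every library. Triangles are males, circles females, open circles the libraries labelled Q84 female 5 and WT female 2, and bars the mean ± SD of the 5 filled points. The lysosomal share is lower in Q84 except for WT male 1, whose mitochondrial share is the highest among WT.

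Beyond the 32 members, 172 other genes of the pathway were looked at in 9 lists. In the 10 libraries 4 of the 172 rose and 1 fell (edgeR), against 1.52% of all genes higher and 4.93% lower. Their log2 fold change was negative in 78 of 172, with a median of 0.02, against 47.7% and 0.01 over all genes. The 172 thus did not share the members' lean to lower values. Among 37 other hydrolases and cofactors Lipa, the lysosomal acid lipase, fell with 89.0 ± 8.88 CPM in Q84 and 118 ± 7.80 CPM in WT libraries (log2 fold change -0.41, adjusted p = 0.015). Ppt1, a thioesterase that removes palmitate from proteins, rose with 134 ± 5.47 and 108 ± 6.73 CPM in the same order (0.32, adjusted p = 0.017). Lipa lost its call without WT female 1 or WT female 3 (adjusted p = 0.062 and 0.078), and Ppt1 without WT female 3 or Q84 male 1 (adjusted p = 0.091 at most). Laptm4b, a lysosomal membrane protein, rose by 0.36 (adjusted p = 0.017) and was the one call among 26 membrane and transport genes. It lost its call without WT female 3 or Q84 male 1 (adjusted p = 0.10 at most).

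Ulk2, the close relative of Ulk1, rose by 0.28 on the log2 scale (adjusted p = 0.036), the one call of 19 other initiation and nucleation genes. Its call was kept only without WT male 1, Q84 female 1 or Q84 female 3, and lost in the other 7 fits (adjusted p up to 0.171). Hspa8, the cytosolic chaperone that brings substrates to LAMP-2A, had 6064 ± 174 CPM in Q84 and 4877 ± 222 CPM in WT libraries, a rise of 0.31 (adjusted p = 0.027), the one call of 5 chaperone genes. Its call was kept only without WT male 1 and lost in the other 9 fits (adjusted p up to 0.120).

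Of the 18 subunit genes of the V-ATPase, the proton pump that acidifies lysosomes, 0 passed, 0 had an unadjusted p under 0.05, DESeq2 called 0, and their log2 fold changes lay between -0.17 (Atp6v1f) and 0.17. Likewise 0 of 22 genes of the TFEB family and of mTORC1 control passed (1 at an unadjusted p under 0.05, DESeq2 0), with Deptor, an mTOR inhibitor, at -0.35 (adjusted p = 0.111) as that of smallest p. Of 8 other conjugation genes 0 passed (2 unadjusted, DESeq2 1), led by the protease gene Atg4a at 0.33 (adjusted p = 0.060). Of 17 other selective receptors 0 passed (1 unadjusted, DESeq2 0), led by Bnip3l at 0.20 (adjusted p = 0.213). Of 20 fusion and tethering genes 0 passed (2 unadjusted, DESeq2 1), led by the SNARE gene Snap29 at -0.25 (adjusted p = 0.132). In all 12 libraries 0 of the 172 passed with edgeR, and DESeq2 called 3, against 620 of all 18875 genes. At an unadjusted p under 0.05 there were 8 of the 172, against 14.3% of all genes (edgeR).

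Other cell types of the ganglion express lysosomal genes too, so their markers are set beside these results. Sensory neurons were present in every library, with their 12 general markers summing to 5953 to 7428 TPM in Q84 and 6529 to 9146 TPM in WT libraries, and 2 of 12 fell (Pou4f1 and Nefl). Of 9 nociceptor markers 4 fell (Calca, P2rx3, Mrgprd and Tac1), and their sum was 2560.4 to 3197 TPM in Q84 and 4707 to 5638 TPM in WT libraries. The libraries labelled Q84 female 5 and WT female 2 lay between these ranges at 4137 and 4090.1 TPM. Of 16 macrophage markers 0 passed (2 at an unadjusted p under 0.05, both higher, DESeq2 0), with sums of 126 to 203 TPM in Q84 and 89.7 to 209 TPM in WT libraries and no marker at 0 throughout. Of 7 satellite glia markers 0 passed (1 unadjusted, DESeq2 0) and of 8 Schwann cell myelin markers 0 (0 unadjusted, DESeq2 0), with overlapping sums. Of 6 mural cell markers Rgs5 alone was called and fell by 1.38 on the log2 scale. Their sum, 57.6 to 88.3 TPM in Q84 and 121 to 192 TPM in WT libraries, was mostly Rgs5 (98.6 TPM on average), while 4 of the 6 had positive log2 fold changes of up to 0.65 (Myh11) and Pdgfrb was the other one at an unadjusted p under 0.05, higher in Q84. Blood cell markers leaned higher without passing: 0 of 6 red blood cell markers were called (6 unadjusted, all higher, DESeq2 2), summing to 1594 to 6785 TPM in Q84 and 596 to 3440.0 TPM in WT libraries, and 0 of 8 granulocyte markers (6 unadjusted, all higher, DESeq2 1), summing to 579.6 to 1727 TPM in Q84 and 146 to 892 TPM in WT libraries. Of 7 fibroblast markers Pdgfra rose by 0.61. Of 5 skin epithelium markers Krt14 and Krt15 were called lower, with sums of 5.77 to 7.16 TPM in Q84 and 4.75 to 136 TPM in WT libraries. The means of these sums were 6.42 ± 0.496 TPM in Q84 and 31.6 ± 58.5 TPM in WT. The WT mean was set by the single library at 136 TPM. Krt14 and Krt15 kept their calls in 4 and 2 of 8 fits with a library left out. Without WT female 1 or without Q84 male 1 neither was among the genes tested. Of 6 markers each, 0 passed for skeletal muscle, adipocytes and endothelial cells. Muscle summed to 5.38 to 1301 TPM in Q84 and 5.36 to 329 TPM in WT libraries, adipocytes to 7.80 to 147 and 6.30 to 20.4 TPM. Leaving out WT female 3 or Q84 male 1 ended the call of Pou4f1 (adjusted p = 0.091 at most), and leaving out Q84 male 1 ended those of Tac1 (0.127) and Pdgfra (0.059). Nefl kept its call only without WT male 1 or Q84 female 4 (adjusted p up to 0.23 in the other 8 fits). The part of these cell types in the lysosomal differences was not tested.

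Between male and female libraries 0 of 32 members were called by edgeR, DESeq2 or limma-voom, and 0 had an unadjusted p under 0.05, against 12 of 18875 genes called (0.0636%) and 3.82% at that unadjusted p. The Q84 group holds 1 male, so a difference between the sexes in the response to the transgene cannot be read from these libraries. In the female libraries alone, 4 Q84 and 2 WT, Ctsl was at -0.55 (edgeR, adjusted p = 0.014) and Lgmn at -0.53 (adjusted p = 0.0044), and Lamp2, at -0.27, did not pass (adjusted p = 0.164).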

How the data were processed

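Estimated counts and TPM per transcript (116313 per library) were deposited by the authors as 1 table for each of the 12 libraries. Per the submitters' processing notes, kallisto 0.46.2, STAR 2.7.10b and the build GRCm39 were used, without their roles, and libraries were made by poly(A) selection, per the labels' protocols. Transcripts were joined to genes by Ensembl identifier in GENCODE M21 (98.3% matched; the rest held 0.751 to 0.804% of counts and were left out). The authors' estimated counts were summed per gene, rounded, filtered with filterByExpr, scaled with TMM and tested with edgeR 4.0.16 (quasi-likelihood, genotype and sex in the model, Benjamini-Hochberg adjustment over all genes). CPM are TMM-scaled. Deposited TPM were summed per gene for levels and divided by that sum for transcript shares. Libraries labelled Q84 female 5 and WT female 2 were left out of the 10-library fits for their Atxn3 transcript. Libraries of 1 group differed by a chi-square of at least 30.9 per degree of freedom, and each counts as 1 replicate. Tests were checked on simulated data. With 10 libraries edgeR recovered 48% of 1.5-fold and 78% of 2-fold changes, and 15 of its 176 calls were false. With 12 libraries it recovered 40% and 88%, and 12 of 174 calls were false. Changes of 1.5-fold or less could thus often be missed. Named are all 32 members, with single libraries for those called and for the 3 autophagy members of smallest p. In each other pathway list the genes called or that of smallest p are named, and in the marker lists those called. The members, lists and libraries left out were chosen with earlier results of these data known. Alternatives were other scalings and filters, DESeq2 1.42.0, limma-voom (limma 3.58.1), length-scaled TPM, other models and leaving out each library. RefSeq windows were matched by symbol.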

Additional observations from a re-analysis of the deposited data

How the results depend on the processing

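In the 10 libraries Ctsl and Lgmn were called under each of the 11 other settings and with each library left out. Lamp2 lost its call in 4 settings (upper quartile factors, the replicate block, genotype alone, female libraries alone), with log2 fold changes of -0.45 to -0.27 over the 11. The members called numbered 2 to 5 with a library left out, and the genes called 681 to 1978, against 1208. The gene count was 1934 with DESeq2, 701 with the replicate block and 629 with the mitochondrially encoded share as a covariate, which was added after seeing the data. In all 12 libraries the gene count, 1, became 15 without a filter, 620 with DESeq2, 639 with the replicate block, 193 with genotype alone, 0 in females alone, 43 with the mitochondrial covariate and 0 to 1082 with a library left out, the highest without Q84 female 5. Members called there numbered 2 with DESeq2, 2 with the replicate block, 1 with genotype alone and 0 to 2 with a library left out. Ulk1 turned to -0.29 (12 libraries) and -0.039 (10 libraries) with the mitochondrial covariate. The cause of these changes was not tested. No member was called between the sexes under any setting run. The main fits did not pair libraries by replicate number. Deviations of same-numbered libraries correlated at -0.19 to 0.30, with 5 of 9 pairs over 0.1. Of 9 libraries with a same-numbered partner, 5 correlated best with one of their own number. Whether the numbers mark a pairing cannot be told from these values. Tfeb and Gla had the lowest counts of the members, at means of 0.824 and 1.58 CPM.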

Other observations

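Lgmn lies on the same mouse chromosome as Atxn3. In the gene order of RefSeq's GRCm38 annotation 6 genes lie between them, 4 of them protein-coding (Ndufb1, Cpsf2, Slc24a4 and Rin3, chosen for their place and not for their values). In the 10 libraries Cpsf2, an mRNA 3′ end processing factor, rose, with a fitted log2 difference of 0.82 (SE 0.065; adjusted p = 2.5e-05, edgeR). Slc24a4, a sodium-calcium exchanger, was at -1.12 (SE 0.41, adjusted p = 0.147) and Rin3 at 0.76 (SE 0.39, adjusted p = 0.314), neither of which passed. No tested gene has the symbol Ndufb1.

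For several members much of the TPM was given to transcripts that are not annotated as coding. Ctsb-202, a retained-intron transcript of 801 bases, held 51.7 ± 1.76% of Ctsb in Q84 and 52.7 ± 1.39% in WT libraries (SD, n = 5 each). The retained-intron transcript Npc1-206 held 44.0 to 69.9% of Npc1 in Q84 and 30.1 to 67.2% in WT libraries. Of Becn1, the transcript Becn1-201, annotated for nonsense-mediated decay, held 37.0 ± 1.12% in Q84 and 36.5 ± 1.5% in WT libraries.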
